A study of Homo sapiens with 12 samples.

Results

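STAT5B binding to chromatin was compared between prednisolone-treated and untreated cells of the SUPT-1 line, a human T-lymphoblastic cell line, carrying doxycycline-inducible wild-type (WT) STAT5B. The comparison sets the prednisolone list of 766 STAT5B regions against the untreated list of 2267, which together are 3033 of the 11904 regions in the 8 ChIP-seq lists of the series. A region is 1 deposited peak on chromosomes 1 to 22 or X. A region was called kept when it overlapped a region of the other list by at least 1 bp, gained when it was in the prednisolone list alone, and lost when it was in the untreated list alone. The prednisolone group was cultured with 250 µg/ml prednisolone for 16 hours and the other group without it, and both were induced with doxycycline, so the untreated cells overexpressed WT STAT5B as well. The inducible cells were selected with puromycin. Whether a line came from 1 clone is not given in the sources used here. The series also holds NR3C1 (glucocorticoid receptor) lists and a line overexpressing the STAT5B mutant N642H; both serve here only to describe the regions. Each list came from 1 library, so nothing in the comparison has a replicate and no test of the treatment was possible. The 95% intervals given are exact (Clopper-Pearson), treat regions as independent counts, and cover counting error only.

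STAT5B is a transcription factor that cytokine receptors of lymphocytes, among them the interleukin 7 and interleukin 2 receptors, activate through JAK kinases. Activated STAT5 dimers bind a palindromic motif, and classical targets include CISH and the SOCS genes, which encode feedback inhibitors of cytokine signalling, and PIM1, which encodes a survival kinase. Prednisolone is a synthetic glucocorticoid. It binds the glucocorticoid receptor NR3C1, which enters the nucleus, binds its own DNA element and induces genes such as FKBP5, and it kills many lymphoid leukaemia cells. STAT5 and the glucocorticoid receptor are known to interact physically at some genes.

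With prednisolone, 454 of the 766 regions (59.3%, 95% interval 55.7 to 62.8%) were also called in untreated cells, and 312 (40.7%) were gained. Of the 2267 untreated regions, 450 (19.9%, interval 18.2 to 21.6%) were kept and 1817 (80.2%) were lost. Most of the untreated list was therefore without a call in the treated library, while most of the shorter prednisolone list lay within it. When both lists were held to their 766 strongest regions, 38.8% of prednisolone and 38.0% of untreated regions were shared. Lists of equal length have near-equal shares by construction, and why the untreated list was longer was not tested.

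Promoter windows of the genes whose starts held the strongest regions are shown first, because 44.2% of gained, 51.3% of kept untreated and 48.4% of lost regions lay within 1 kb of a gene start. The windows run from 250 bases before to 50 bases after the start, 5′ to 3′ on the gene's strand, and are taken from RefSeq (GRCh38.p14). Capitals mark matches on either strand to TTCNNNGAA, the STAT5 motif, or to CCGGAAG, a motif of the ETS family of transcription factors. The first pair belongs to the strongest gained regions with a summit in such a window. AKR1B1, which encodes aldose reductase, has its window at chr7:134459190-134459489 on the minus strand. DNAJC2, which encodes a ribosome-associated chaperone, has its window at chr7:103344718-103345017 on the minus strand.
AKR1B1: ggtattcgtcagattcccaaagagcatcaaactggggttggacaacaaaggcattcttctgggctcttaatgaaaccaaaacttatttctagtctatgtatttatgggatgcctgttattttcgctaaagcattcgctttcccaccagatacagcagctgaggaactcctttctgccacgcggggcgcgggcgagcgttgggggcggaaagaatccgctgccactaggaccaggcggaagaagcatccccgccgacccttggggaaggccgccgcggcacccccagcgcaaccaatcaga
DNAJC2: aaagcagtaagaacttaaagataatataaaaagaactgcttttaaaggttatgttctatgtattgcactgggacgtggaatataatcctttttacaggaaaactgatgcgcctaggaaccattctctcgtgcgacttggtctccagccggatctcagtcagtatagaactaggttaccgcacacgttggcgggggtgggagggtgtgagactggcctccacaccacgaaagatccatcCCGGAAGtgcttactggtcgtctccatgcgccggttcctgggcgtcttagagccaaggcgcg

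The next 4 windows belong to the strongest kept regions. RTTN, whose product acts at the centrosome and cilium, has its window at chr18:70205638-70205937 on the minus strand. IPO4, which encodes a nuclear import receptor, has it at chr14:24188767-24189066 on the minus strand. COPS7B, which encodes a subunit of the COP9 signalosome, has it at chr2:231786195-231786494 on the plus strand. ZBTB45, which encodes a zinc finger protein, has it at chr19:58519761-58520060 on the minus strand.
RTTN: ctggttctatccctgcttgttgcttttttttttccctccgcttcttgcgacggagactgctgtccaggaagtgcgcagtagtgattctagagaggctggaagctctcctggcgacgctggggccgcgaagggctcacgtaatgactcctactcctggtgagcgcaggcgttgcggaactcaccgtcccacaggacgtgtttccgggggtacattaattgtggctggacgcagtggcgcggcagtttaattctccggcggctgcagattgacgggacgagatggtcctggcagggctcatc
IPO4: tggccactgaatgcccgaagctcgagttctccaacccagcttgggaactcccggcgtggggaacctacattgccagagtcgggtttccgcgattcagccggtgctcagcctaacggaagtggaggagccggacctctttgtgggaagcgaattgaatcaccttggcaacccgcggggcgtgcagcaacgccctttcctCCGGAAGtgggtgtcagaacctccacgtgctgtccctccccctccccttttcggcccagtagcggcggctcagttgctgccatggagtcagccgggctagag
COPS7B: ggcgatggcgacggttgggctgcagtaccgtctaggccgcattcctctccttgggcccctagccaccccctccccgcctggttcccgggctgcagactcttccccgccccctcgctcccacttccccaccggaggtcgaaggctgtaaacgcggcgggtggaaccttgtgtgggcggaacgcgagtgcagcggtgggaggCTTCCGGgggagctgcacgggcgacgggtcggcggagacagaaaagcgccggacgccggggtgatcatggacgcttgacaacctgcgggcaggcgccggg
ZBTB45: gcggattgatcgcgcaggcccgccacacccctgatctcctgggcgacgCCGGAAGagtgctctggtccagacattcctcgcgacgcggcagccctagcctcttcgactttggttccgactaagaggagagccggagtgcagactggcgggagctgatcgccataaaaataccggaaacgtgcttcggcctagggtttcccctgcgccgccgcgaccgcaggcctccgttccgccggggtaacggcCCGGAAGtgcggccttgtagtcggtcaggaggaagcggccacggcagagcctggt

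The last pair belongs to the strongest lost regions. SLC35E2B, which encodes a member of a solute carrier family, has its window at chr1:1692746-1693045 on the minus strand. Its start held a kept pair besides the lost region. TMEM79, which encodes a transmembrane protein, has it at chr1:156282682-156282981 on the plus strand.
SLC35E2B: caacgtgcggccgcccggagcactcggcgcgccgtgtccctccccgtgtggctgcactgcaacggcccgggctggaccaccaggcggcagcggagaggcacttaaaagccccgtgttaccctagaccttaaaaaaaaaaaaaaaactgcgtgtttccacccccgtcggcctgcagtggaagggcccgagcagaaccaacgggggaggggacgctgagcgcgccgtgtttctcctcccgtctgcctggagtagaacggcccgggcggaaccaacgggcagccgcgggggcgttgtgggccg
TMEM79: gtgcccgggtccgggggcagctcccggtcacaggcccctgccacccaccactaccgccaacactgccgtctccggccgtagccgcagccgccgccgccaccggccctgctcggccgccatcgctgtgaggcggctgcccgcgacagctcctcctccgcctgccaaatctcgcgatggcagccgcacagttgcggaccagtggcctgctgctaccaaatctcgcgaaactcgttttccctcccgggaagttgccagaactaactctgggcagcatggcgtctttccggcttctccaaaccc

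The windows of COPS7B and ZBTB45 lie at annotated starts within the gene's outer span. None of these 8 windows matched the STAT5 motif, while those of DNAJC2, IPO4 and COPS7B held 1 ETS match each and that of ZBTB45 held 2. The same was counted over every promoter window that held a summit. The STAT5 motif was in 11 of 157 windows of gained summits (7.01%), 18 of 292 of kept untreated summits (6.16%) and 58 of 805 of lost summits (7.20%), against 7.66% of all 34787 windows. The share of windows with the STAT5 motif was thus near that of all promoters in each class. The ETS motif was in 35 windows of gained summits (22.3%, interval 16.0 to 29.6%), 111 of kept untreated summits (38.0%, 32.4 to 43.9%) and 247 of lost summits (30.7%, 27.5 to 34.0%), against 10.2% of all windows. Windows with a summit therefore held the ETS letters more often than promoters at large in every class, with the interval of the gained class below that of the kept class. The NR3C1 list of the same line had the ETS letters in 10 of 44 windows (22.7%, interval 11.5 to 37.8%), so a share above that of all promoters was not particular to STAT5B.

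The glucocorticoid receptor motif ACANNNTGT was in 1.91% of gained, 1.71% of kept untreated and 1.49% of lost windows, against 5.37% of all windows. The cyclic AMP response element TGACGTCA was in 1.91%, 3.08% and 5.47% of these, against 1.84% of all windows. The GC box GGGCGG, which follows base composition, was in 68.2%, 64.7% and 70.1%, against 44.9% of all windows, so windows with a summit also differed from the rest in GC-rich letters. The part of base composition in the ETS shares was not tested. All motifs were read on both strands. A STAT5 and an ETS match can overlap, since both hold TTC or its complement. A match describes letters only. Promoter windows were at hand for 15452 of the 19308 protein-coding genes used (80.0%), and regions outside these windows were not searched.

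**Figure D1:**
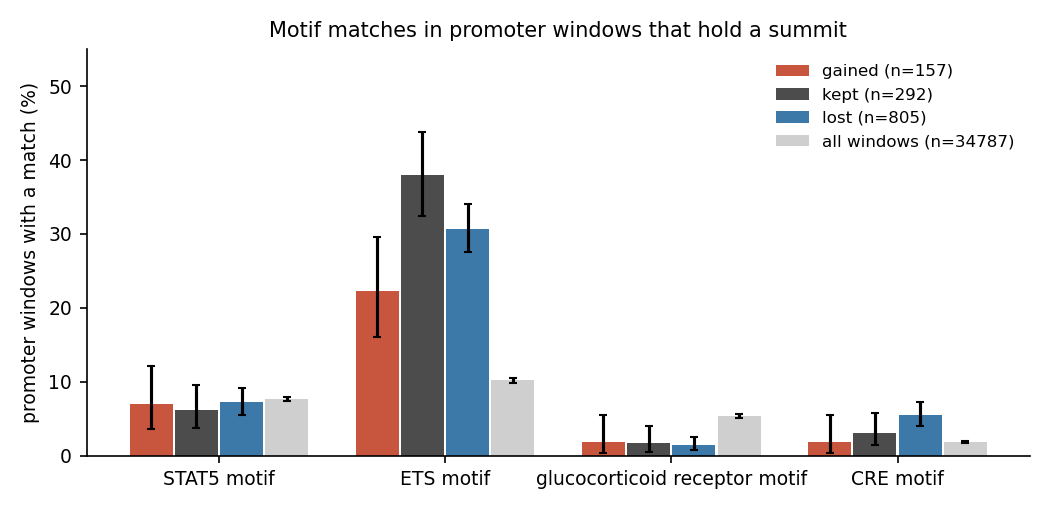
Share of promoter windows (%, y axis) with at least 1 match to each of 4 motifs (x axis), for windows holding a gained, kept (untreated list) or lost STAT5B summit and for all RefSeq promoter windows; lines are exact 95% intervals. The ETS bars stand at 22.3%, 38.0% and 30.7% against 10.2% of all windows, and the STAT5 bars lie near the 7.66% of all windows.

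The regions were weak and narrow in both libraries. The fold enrichment, −log10 p and −log10 q of a peak are the authors' own values for that peak and serve here to describe, rank or select peaks of 1 list; set side by side they do not measure a change. Median fold enrichment was 6.77 for gained regions, 7.41 and 7.32 for kept regions in the prednisolone and untreated lists, and 6.16 for lost regions. Median width was 104.5 bp for gained, 140.5 and 202 bp for kept (prednisolone and untreated lists), and 121 bp for lost regions. Kept regions were thus wider and more enriched than regions in 1 list alone. The number of tags (reads extended to fragments) piled up at a summit, solved from the fold enrichment and −log10 p, had a median of 15 with prednisolone and 12 untreated. The lowest local background came to 7.95 tags per kb in the prednisolone library and 8.31 in the untreated library, and the commonest to 15.1 and 12.3. The lowest −log10 p was 6.34 in the prednisolone list and 5.87 in the untreated list, and 74 lost regions (4.07%) lay below 6.34.

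Whether a region was in both lists went with its strength. In the prednisolone list, 81.2% of the strongest quintile by −log10 q were also called in untreated cells, then 66.7%, 58.8%, 41.8% and 47.7% in the weaker quintiles. In the untreated list, 47.4% of the strongest quintile were also called with prednisolone, then 20.0%, 13.2%, 8.83% and 9.71%. Among the 100 strongest regions of each list, 84% of the prednisolone and 71% of the untreated regions were shared. The fall was therefore steepest between the first quintile of the untreated list and the second. Median summit tags in that list were 17 in the strongest quintile and 10 in the weakest, so many losses rest on a handful of tags.

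**Figure D2:**
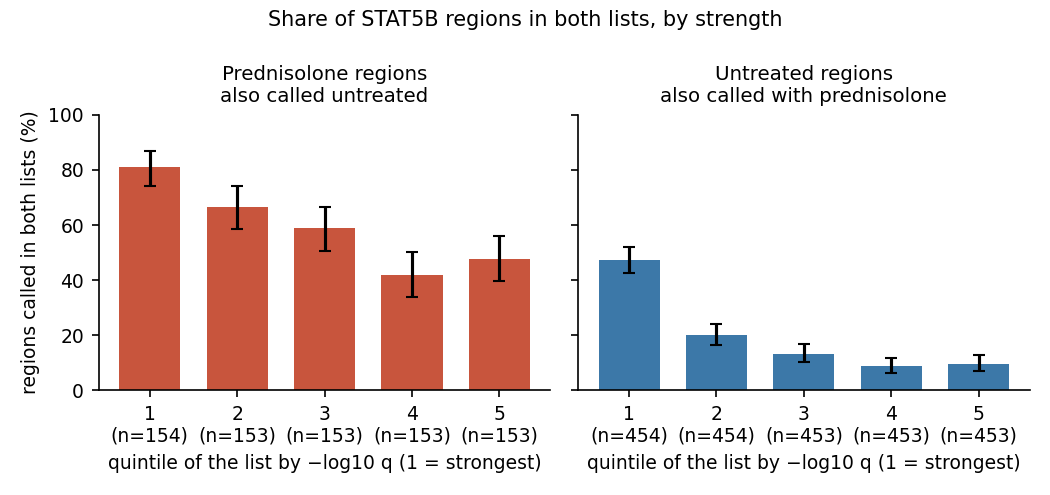
Share of regions called in both lists (%, y axis) by quintile of −log10 q (x axis, 1 = strongest), for the prednisolone list (left) and the untreated list (right); lines are exact 95% intervals. The share is 81.2% in the strongest prednisolone quintile and 47.4% in the strongest untreated quintile, and lower in every weaker quintile.

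The kept regions formed 458 overlapping pairs. Summits of a pair lay a median of 41 bp apart, and 258 pairs (56.3%) had summits within 50 bp of each other. The fold enrichment of the prednisolone peak was above that of the untreated peak in 246 pairs and below it in 212, with 12 pairs differing by at least 2 times in each direction. Pairs were thus spread about evenly on both sides. At the 90 pairs that overlapped an NR3C1 region, 53 had the higher fold with prednisolone, and at the other 368 pairs 193 did.

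The 10 strongest kept regions of the prednisolone list included those at the start of FKBP5 and inside KLF13, both among the glucocorticoid response genes listed below. The region at the start of FKBP5, which encodes a co-chaperone that dampens glucocorticoid receptor signalling, had fold 17.2 with prednisolone (chr6:35727851-35728271, 38 tags) and 9.07 untreated (chr6:35727977-35728273, 18 tags). It was the strongest region of the prednisolone list. The region inside KLF13, a Krüppel-like transcription factor gene, had fold 14.5 with prednisolone (chr15:31365691-31366072, 33 tags) and 4.14 untreated (chr15:31365913-31366010, 11 tags). This pair had the widest gap towards prednisolone. A region 11606 bp from BTG2, an anti-proliferative gene, was not among the 10 strongest kept regions. It had fold 10.6 with prednisolone and 4.95 untreated. This pair overlapped by 25 bp. The prednisolone regions of these 3 lay at NR3C1 regions, but of the 10 pairs with the widest gap towards prednisolone only 3 did.

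Other kept regions stood higher in the untreated list. A region 2218 bp from ZBTB7B, which encodes the transcription factor ThPOK of the CD4 T-cell lineage, had fold 5.99 with prednisolone (chr1:154999396-154999724) and 17.6 untreated (chr1:154999340-154999721). The start of SELENOH, a selenoprotein gene, had fold 4.71 with prednisolone and 13.3 untreated. The start of TCF3, which encodes the E2A proteins of lymphoid development, had fold 5.77 with prednisolone and 11.8 untreated. The start of HEXIM1, which encodes an inhibitor of the elongation factor P-TEFb, had 4.07 with prednisolone and 10.0 untreated. Of the 10 pairs with the widest gap towards the untreated list, 1 lay at an NR3C1 region, near ANAPC1, with fold 4.86 with prednisolone and 10.5 untreated. ARID3B, a DNA-binding protein gene, stood high in both lists, with fold 14.9 with prednisolone and 12.4 untreated. So did the start of KMT2A, the histone methyltransferase gene rearranged in acute leukaemias, with 11.96 with prednisolone and 18.1 untreated; it was picked after its values had been seen.

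**Figure D3:**
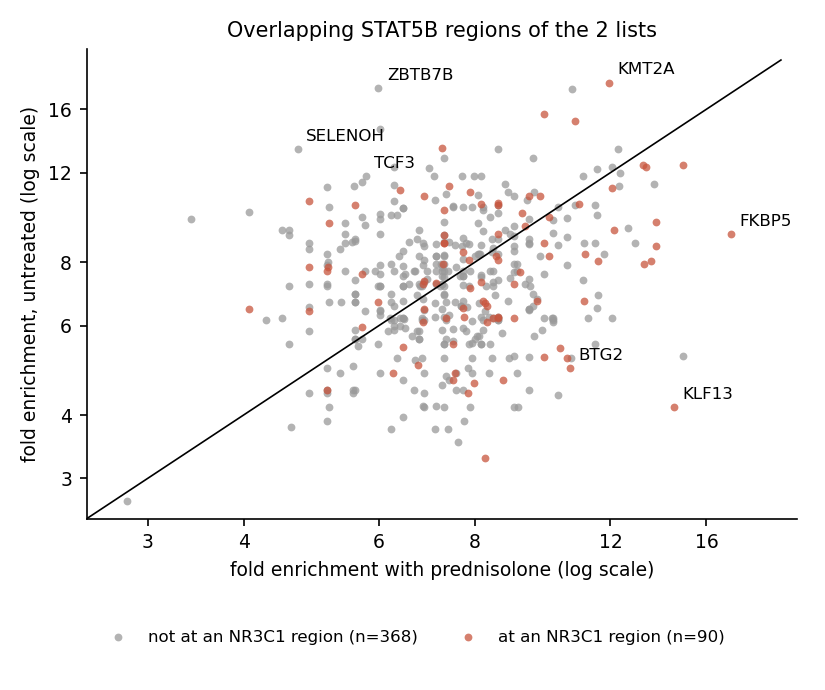
Fold enrichment of each of 458 overlapping pairs, with prednisolone (x axis, log scale) and untreated (y axis, log scale), coloured by overlap with an NR3C1 region of the same line; the line marks equal values. Points lie on both sides of the line (246 below it, 212 above), with KLF13 farthest below and ZBTB7B farthest above.

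By position, gained, kept and lost regions were much alike. Summits within 1 kb of the start or end of a protein-coding gene made up 55.8% of gained (interval 50.1 to 61.4%), 60.2% of kept untreated (55.5 to 64.8%) and 56.3% of lost regions (54.0 to 58.6%). Regions inside genes away from their ends made up 23.7%, 17.3% and 22.4% of these classes, and regions outside genes 20.5%, 22.4% and 21.3%. Few lay at known 3′ ends, with 1.28% of gained, 0.222% of kept untreated and 0.991% of lost regions. A further 10.3%, 8.67% and 6.93% of these classes lay at gene ends of unknown strand, which may be starts or 3′ ends. By chromosome, the kept share of untreated regions ran between 9.52% on chromosome 9 and 28.6% on chromosome 21 among the autosomes. On X none of 21 untreated regions was kept, which allows a share of up to 14.3% by the limit of 3 regions and 16.1% by the exact interval.

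The classes differed in overlap with NR3C1. NR3C1 regions of the same line with prednisolone overlapped 16.99% of gained (interval 12.99 to 21.6%), 19.6% of kept untreated (16.0 to 23.5%) and 4.13% of lost regions (3.26 to 5.15%). Position went with this overlap. Of the 53 gained at an NR3C1 region, 3 lay at a gene end, 28 inside a gene and 22 outside genes. Of the 259 gained elsewhere, 171 lay at a gene end (66.0%, interval 59.9 to 71.8%). Of kept untreated regions, 29 of 88 lay at gene ends where NR3C1 was called (33.0%, interval 23.3 to 43.8%) and 242 of 362 where it was not (66.9%). Of lost regions these were 10 of 75 (13.3%) and 1013 of 1742 (58.2%). The share at gene ends was thus lower at NR3C1 regions in each class, and the kept interval lay above that of gained regions at NR3C1 (5.66%, interval 1.18 to 15.7%). In the NR3C1 list itself 9.46% of 994 regions lay at gene ends.

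Regions called with the N642H form were kept more often. The untreated STAT5B list of the N642H line, 4541 regions, overlapped 55.4% of gained (interval 49.7 to 61.0%), 90.0% of kept untreated (86.8 to 92.6%) and 54.3% of lost regions (52.0 to 56.6%). Of the 1392 untreated regions that were also in that list, 405 were kept (29.1%), against 45 of the other 875 (5.14%). Regions in the N642H list were also stronger, with a median −log10 q of 5.80 against 4.75. Within quintiles of strength the kept share was 53.8% against 13.7% in the strongest quintile and 15.7% against 4.24% in the weakest, with regions in the N642H list first. Where an untreated region was in both the N642H list and the NR3C1 list, 84 of 143 were kept (58.7%, interval 50.2 to 66.9%). In neither list were 33.7% of gained, 9.11% of kept untreated and 44.8% of lost regions.

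**Figure D4:**
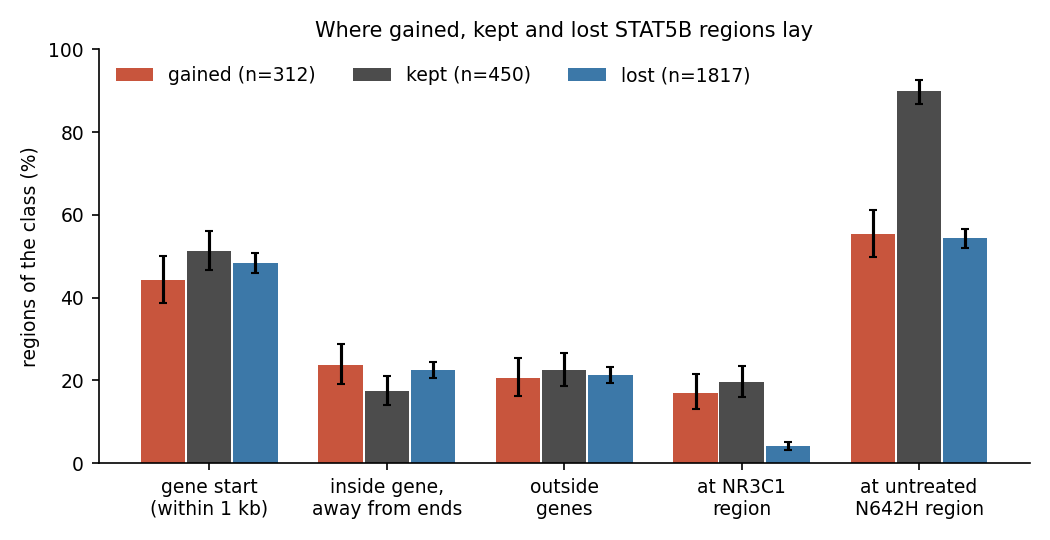
Share of gained, kept (untreated list) and lost STAT5B regions (%, y axis) by position relative to protein-coding genes and by overlap with the NR3C1 list of the same line and the untreated STAT5B list of the N642H line (x axis); lines are exact 95% intervals. Positions are alike across the classes, whereas 4.13% of lost regions were at NR3C1 regions and 90.0% of kept regions were in the N642H list.

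The 10 strongest gained regions lay partly at NR3C1 regions far from gene starts. The one nearest to BTG1, an anti-proliferative gene of lymphocytes, lay 109440 bp from it (chr12:92030711-92030978), with fold 14.4 in the STAT5B list and 70.8 in the NR3C1 list. Inside GMDS, which encodes an enzyme of GDP-fucose synthesis, the fold was 10.7 (chr6:2038173-2038466), and NR3C1 had 27.5. A region 90815 bp from ZFP36L2, an RNA-decay factor gene, had fold 8.82 (chr2:43131179-43131730), and NR3C1 had 40.9. Inside KIF3C, a kinesin gene, the fold was 7.68, and NR3C1 had 45.1. A region 166736 bp from the NR3C1 gene itself had fold 10.2 (chr5:143602025-143602320), and NR3C1 had 55.9. All 5 gained calls thus stood at NR3C1 regions, each with the higher fold in the receptor's list. This did not hold for every gained region at NR3C1. Those near LARS2 and inside VOPP1, further down, had the higher fold in the STAT5B list. Folds of different lists do not compare amounts bound.

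The other 5 of the 10 had no NR3C1 call. Fold was 12.2 at the start of AKR1B1 (chr7:134459208-134459354) and 10.5 at the start of FZD1, a Wnt receptor gene (chr7:91264309-91264411). At the start of DNAJC2, within the span of the mitochondrial processing peptidase gene PMPCB, it was 11.5 (chr7:103344813-103344964). The remaining pair lay towards chromosome ends, with the nearest genes OR4F5 at 109235 bp (chr1:180805-180884, fold 11.4) and ANHX at 29114 bp (chr12:133264943-133265052, fold 9.88). Further down the gained list, NR3C1-marked regions stood inside ZBTB16 (fold 8.08), which encodes the zinc finger factor PLZF, inside RUNX2 (9.10), a runt-domain factor gene picked after its values had been seen, and 1402 bp from DUSP1 (4.28), a phosphatase gene of the glucocorticoid response.

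Of the 10 strongest lost regions, none lay at an NR3C1 region and all 10 were in the untreated N642H list. The strongest was inside TEX14, a germ-cell gene, with fold 16.1 and 28 tags (chr17:58631517-58631928). At the start of RBBP5, a subunit gene of histone methyltransferase complexes, the fold was 12.8 (chr1:205122153-205122413). At the start of EZH2, which encodes the histone methyltransferase of Polycomb complex PRC2, it was 11.3 (chr7:148884663-148884875). Starts of SLC35E2B and TMEM79 had fold 12.8 and 12.2, and regions inside PLXNB2, a semaphorin receptor gene, and SH3RF3 had 12.3 and 12.1. The start of SLC35E2B also held a kept pair, with fold 8.42 with prednisolone (chr1:1693055-1693186) and 8.87 untreated (chr1:1692979-1693215). That start was therefore not without a call in the treated library. The other 3 had OR4F17, TNRC6C and CCDC200 as nearest genes. The untreated folds of these lost regions ran from 11.3 to 16.1, but the regions were picked as the strongest. The median of all lost regions was 6.16, below the kept untreated median of 7.32.

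The 10 strongest kept regions included those at FKBP5, ARID3B, KLF13, TOR1AIP1 and SMG8. The others lay outside genes and are named by the nearest gene. They were 28908 and 31024 bp from GRAPL on chromosome 17, 48296 bp from NBPF1, 537131 bp from GSDMC and 8404 bp from DAD1. The region nearest to DAD1, a subunit gene of the oligosaccharyltransferase, had fold 10.8 with prednisolone (chr14:22556266-22556791) and 15.2 untreated. TOR1AIP1, an inner nuclear membrane protein gene, had 12.6 with prednisolone and 9.32 untreated at its start. SMG8, a nonsense-mediated decay gene, had 13.6 with prednisolone and 8.03 untreated.

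Several of the strongest kept regions lay at small RNA genes rather than at the protein-coding genes nearest to them. These genes were looked up after the data had been seen. The annotated snRNA genes include those for the RNAs of the spliceosome and others, such as RNU7-1 and RN7SK. Within 250 bp of snRNA genes lay none of 312 gained, 17 of 450 kept untreated (3.78%) and 24 of 1817 lost regions (1.32%). None of 312 allows a share of up to 0.962% by the limit of 3 regions and 1.18% by the exact interval. RNU1-1, a U1 gene, had fold 13.7 with prednisolone (chr1:16513889-16514376) and 11.4 untreated (chr1:16514002-16514326). SNORD3A, a U3 snoRNA gene whose product processes ribosomal RNA, had 13.3 with prednisolone (chr17:19188044-19188263) and 12.3 untreated (chr17:19188000-19188247). SNORD3C had 14.9 with prednisolone and 5.22 untreated.

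Of all untreated regions at these genes, 17 of 41 at snRNA genes (41.5%, interval 26.3 to 57.9%), 6 of 7 at snoRNA genes and 5 of 36 at tRNA genes (13.9%, interval 4.67 to 29.5%) were kept. An array of 13 annotated snRNA genes at chr17:43233790-43300231 held 5 kept and 9 lost untreated regions, RNU2-1 among the lost (fold 9.48). Losses also included RNU12 (7.59), RNU7-1 (5.92) and RN7SK (5.52), the RNA that binds HEXIM1. Many of these genes have near-identical copies, so the copy to which reads were assigned is uncertain.

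At the level of genes, a gene was linked to a region when the summit lay in it or within 20 kb. Of 19308 protein-coding genes, 1194 (6.18%) had a call with prednisolone and 3101 (16.1%) untreated. Across both lists, 317 gained a call (1.64%), 877 kept one (4.54%) and 2224 lost one (11.5%). With both lists held to equal length, 648 genes gained, 546 kept and 677 lost a call. Equal lengths bring gains and losses close to each other by construction, so this cut does not explain the excess of losses. The gene lists below, and the counts that follow, come from the full lists alone. Of the genes that kept a call, 742 (84.6%) did so through an overlapping pair and 135 through other regions. With a summit within 1 kb of a gene end, 541 genes (2.8%) had a call with prednisolone and 1468 (7.6%) untreated, and 167 genes gained (0.865%), 374 kept (1.94%) and 1094 lost a call (5.67%). These shares are the background for the gene lists that follow.

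Among 30 STAT5 target genes, 1 gained, 2 kept and 5 lost a call (16.7% lost, against 11.5% of all genes). The gain was BCL2L1, which encodes the survival protein BCL-XL, with a region of fold 7.07 inside the gene (chr20:31708450-31708544) at an NR3C1 region of fold 7.27. CCND3, which encodes the G1 cyclin D3, had 1 region with prednisolone (fold 8.25) and 5 untreated regions, of which 4 were lost, among them one inside the gene at fold 7.29. PIM1 lost a region at its start (fold 5.18), BCL6, a transcriptional repressor gene, one at its start (4.14), PIM3 one at its start (7.32), and SPRED2, an inhibitor of Ras signalling, one at its start (8.53). SOCS3 lost a region 17739 bp away (4.95), at the start of another gene.

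Besides these, several well-known STAT5 targets had no call in either WT list. CISH, SOCS1, SOCS2 and PIM2 had none within 20 kb, nor did the survival genes BCL2 and MCL1. The cyclin gene CCND2 and the interleukin 7 receptor gene IL7R had none either. The same held for BCL2L11, a pro-apoptotic gene of the BCL2 family. In the untreated N642H list CISH had fold 12.7, SOCS2 9.61 and PIM2 27.3, while SOCS1 and BCL2 had no call there either. The nearest untreated WT regions to CISH and to SOCS2 lay 379019 bp and 4217236 bp away. The one nearest to SOCS1 lay 21320 bp away (fold 6.16), just beyond the 20 kb limit. The lists of the WT line thus carry the label STAT5B without a call within 20 kb of CISH or SOCS2. The untreated list had a call at the start of PIM1 and one 17739 bp from SOCS3, at the start of another gene. The share of the STAT5 motif at promoters was not raised in any class.

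Of 24 genes of the JAK-STAT and interleukin 7 receptor pathway, none gained, 4 kept (16.7%) and 5 lost a call (20.8%). STAT3 kept a region at its start, with fold 7.41 with prednisolone and 11.3 untreated. STAT5B lost a region inside the gene (7.94) and STAT5A one at the facing end of STAT3 (6.68). Losses also took in PTPN6 (7.99), a phosphatase gene that restrains JAK signalling, PTPRC (6.07), which encodes CD45, and TSLP (9.22), a cytokine gene. Beyond 20 kb of PTPRC lay a kept pair at an NR3C1 region, with fold 4.86 with prednisolone and 7.84 untreated.

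The 31 glucocorticoid response genes had the highest share of gains of the lists at 20 kb, with 4 gained (12.9%), 6 kept (19.4%) and 5 lost (16.1%). At gene ends alone the share of gains was 3.23%, below the 6.33% of ribosomal protein genes and the 4.55% of spliceosome genes. Gains were at ZBTB16 (fold 8.08), DUSP1 (4.28), ZFP36 (5.84, at the start of PLEKHG2), an RNA-decay factor gene, and SMAP2 (6.997), and the NR3C1 list had a region within 20 kb of each (28.2, 19.2, 7.78 and 36.2 in that order). FKBP5, besides its start, kept a second region 3.4 kb beyond it, with fold 9.63 with prednisolone and 6.71 untreated, and gained one inside the gene (8.68, chr6:35602044-35602216). KLF13 had 2 regions with prednisolone and 6 untreated, and the 4 lost ones had folds between 4.16 and 6.70. Losses were at PER1 (5.64), a clock gene, DDIT4 (7.19), an inhibitor of mTOR, TOB1 (6.67), IRS2 (6.61) and within NR3C1 itself (5.40). These are losses within 20 kb. The lost region of PER1 lay 973 bp from the gene and also within 250 bp of a tRNA gene. A gained region of fold 10.4 lay 41505 bp from TOB1. Beyond 20 kb of DDIT4 lay a kept pair nearest to ANAPC16, with fold 7.97 with prednisolone and 4.62 untreated. Both the gained region and the pair were at NR3C1 regions. TSC22D3, which encodes GILZ, had no call within 20 kb, and the nearest prednisolone region lay 38940 bp away (fold 7.78).

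Some genes kept a call although none of their regions overlapped. CXCR4, the chemokine receptor gene, had 1 prednisolone region 18286 bp away (fold 9.46, chr2:136136337-136136470) and 3 untreated ones, all lost, of which one at fold 5.18 lay beside the gained region (chr2:136136677-136136828). Both of these lay at an NR3C1 region, and the NR3C1 list reached fold 45.4 there. IKZF1, which encodes the lymphoid factor Ikaros, had 2 gained regions inside the gene (8.79 and 6.02) and 2 lost ones (7.14 and 4.89). One of the gained regions was at an NR3C1 region of fold 34.0.

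Among 35 transcription factors of the T lineage, 1 gained (2.86%), 6 kept (17.1%) and 8 lost a call (22.9%). IKZF3, which encodes Aiolos, gained a region 3174 bp away (fold 7.14). NOTCH3, a Notch receptor gene, kept one inside it, with fold 8.56 with prednisolone and 10.4 untreated, and lost another (7.48). NOTCH1 lost a region at its start (7.32), and its target HES1 one 1158 bp away (7.32). RUNX1 (7.27), BCL11B (6.16), LEF1 (5.96), TCF7 (5.64), ID3 (6.40) and ETV6 (5.49), all genes of lymphoid development, lost a call within 20 kb too. Beyond 20 kb of BCL11B lay kept pairs nearest to that gene, at NR3C1 regions. Their folds were 7.48 and 8.99 with prednisolone and 4.68 and 7.25 untreated. Of 28 T-cell receptor and signalling genes, 1 gained, 1 kept and 5 lost a call: PTCRA, the pre-T-cell receptor alpha gene, gained one 3659 bp away (7.66), at the start of a neighbouring gene, and CD3E kept one, with fold 6.44 with prednisolone and 5.45 untreated.

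The 20 genes of the BCL2 family had 1 gain, 1 kept and 2 lost calls. BMF, a pro-apoptotic BH3-only gene, kept a region at its start, with fold 6.02 with prednisolone and 4.83 untreated, and BAD, another such gene, lost one (5.19). Of 22 NF-kappaB and AP-1 genes, none gained, 2 kept and 3 lost. FOS kept one at its start, with fold 6.86 with prednisolone and 7.35 untreated, and gained a second beside it (7.71). The 20 markers of non-blood tissues and the 20 of other blood cells had 1 loss each, at GFAP and CD79A, and no gain.

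Replication-dependent histone genes, which are transcribed in S phase and sit in clusters, stood out by number. None of 56 gained, 14 kept (25%) and 35 lost a call (62.5%). Because the genes are clustered, these counts rest on few regions: 3 kept and 14 lost untreated regions were linked to them, and none of the gained ones. At gene ends 4 genes kept and 13 lost a call. H2BC12 and its neighbour H4C9 kept a region with fold 5.75 with prednisolone and 9.46 untreated, and H4C12 kept one with 9.28 with prednisolone and 7.25 untreated. Losses included the region at H4C5 (7.18) and the one at H3C11 (7.19).

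Of 79 cytosolic ribosomal protein genes, 6 gained (7.59%), 7 kept (8.86%) and 16 lost a call (20.3%), most of them at gene ends. RPL38 (fold 8.99), RPL5 (7.71), RPL27 (7.39) and RPS23 (6.40) gained one. RPS7 kept one, with fold 9.84 with prednisolone and 15.7 untreated, and RPL18 kept one, with 10.1 with prednisolone and 6.21 untreated. RPS27A (7.38), RPL4 (7.25) and RPS15 (7.19) lost one. Nuclear genes of the respiratory chain gained 1, kept 11 (14.7%) and lost 8 (10.7%) of 75. NDUFA12, a complex I subunit gene, gained a region at its start (10.1). NDUFS3 and NDUFS7, also of complex I, kept theirs, with folds of 8.99 and 8.08 with prednisolone and 8.59 and 9.55 untreated. Both regions of the NDUFS7 pair also lay within 250 bp of a tRNA gene.

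Spliceosome genes gained 2, kept 7 (15.9%) and lost 10 (22.7%) of 44. SF3A3 kept a region, with fold 8.09 with prednisolone and 8.30 untreated, SRSF11 gained one (6.37), and SNRPB (8.30) and SRSF1 (7.14) lost one. Of 35 cell cycle and DNA replication genes none gained, 2 kept and 11 lost a call (31.4%), among them CDK1 (5.13), PLK1 (6.16) and PCNA (6.50). Highly expressed housekeeping genes had none gained, 2 kept and 8 lost of 25 (32.0%). ACTB, the beta-actin gene, lost a region (8.21), and so did PPIA (7.42), which encodes cyclophilin A. Because losses were the commonest outcome for all genes, each of these lists had as many losses as gains or more.

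**Figure D5:**
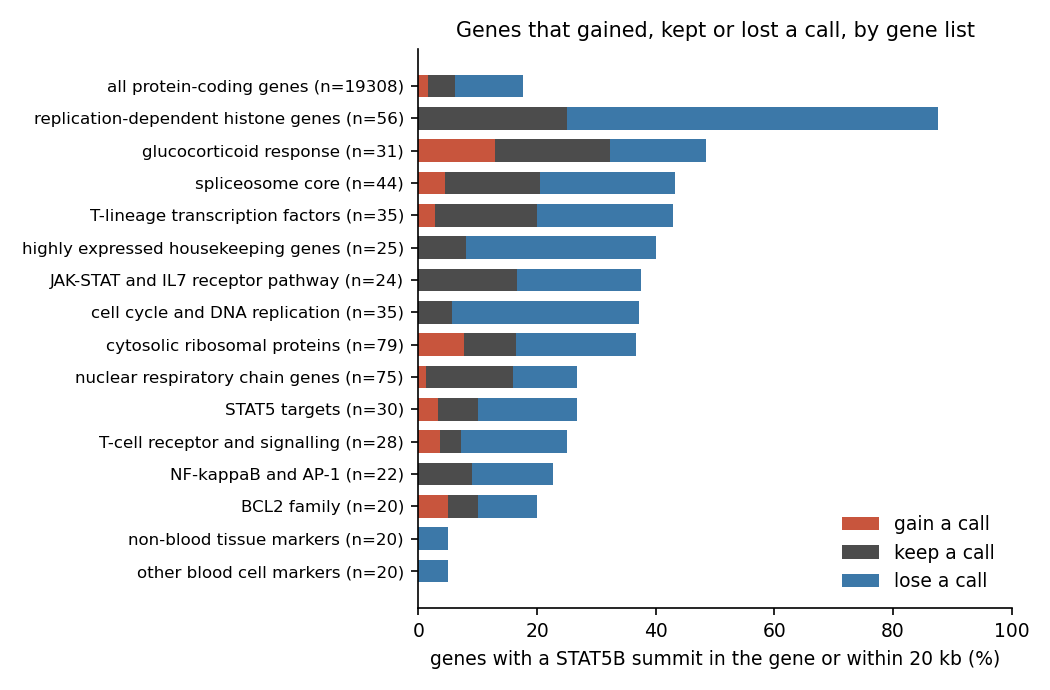
Share of genes in each list (%, x axis) that gained, kept or lost a STAT5B call with prednisolone, by the summit lying in the gene or within 20 kb; the top bar gives all 19308 protein-coding genes (1.64%, 4.54% and 11.5%). The histone list has no gain and 62.5% losses, and the glucocorticoid response list has the highest share of gains at this distance, 12.9%.

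The gene nearest to the most untreated regions was picked after its values had been seen. GSE1, which encodes a coiled-coil protein of repressor complexes, had 2 prednisolone regions and 11 untreated ones as the nearest gene, of which 10 were lost.

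The same gene calls were counted in the N642H line. Of the 317 genes that gained a call in the WT line, 211 (66.6%) lost one in the N642H line and 3 gained one there as well. Of the 2224 genes that lost a call in the WT line, 1493 (67.1%) lost one in the N642H line and 12 gained one. Of all 19308 genes, 5108 (26.5%) lost a call in the N642H line and 45 gained one. The share losing there was thus alike for genes that gained and genes that lost a call in the WT line. The N642H line had 444 STAT5B regions with prednisolone and 4541 untreated, so a loss was the commonest outcome there too, and the difference between the lines was not tested. By region, those 444 overlapped 11.2% of gained, 32.7% of kept untreated and 4.40% of lost WT-line regions. The gained regions near BTG1, ZFP36L2 and NR3C1 and inside KIF3C were among them and absent from the untreated N642H list. The one inside GMDS was in the untreated N642H list alone.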

How the data were processed

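SUPT-1 ChIP-seq libraries came as 1 narrowPeak list each, on hg38. BWA, MACS2 and deepTools are named in the submitters' processing notes, with no version given in the sources used here. For each peak the authors deposited −log10 p, −log10 q, a score equal to 10 times the −log10 q cut to an integer, the summit offset, and the fold enrichment, which is the ratio of ChIP pileup to local background. The deposited lists hold peaks with −log10 q of at least 2. Peaks were called per library, and no q-value was recomputed.

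Regions on chromosomes 1 to 22 and X were used. Overlap meant at least 1 bp. Protein-coding genes came from RefSeq GRCh38.p14, 19308 genes after dropping alternative sequences and unnamed loci. Starts and strand came from the RefSeq promoter windows; a gene end without one has no known strand. Genes were linked at 20 kb, and gene ends counted within 1 kb. Tags at summits were solved under the Poisson formula with a pseudocount of 1, for 100% of regions of both lists. Overlap and solving were tested on simulated data. Analyses used Python 3.11.15, pandas 2.3.3, numpy 2.4.6 and scipy 1.17.1.

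With 1 library a side no test was made, and regions are described by counts and exact 95% intervals. Named genes are those nearest to the 10 strongest gained, kept and lost regions, members of the gene lists, and a fixed set of STAT5, survival and glucocorticoid genes; others are marked as chosen after the data had been seen, as were the motifs, the promoter examples and the pairs with the largest gap in fold. The gene sets and lists were chosen with earlier results of these data known. Alternatives were other overlaps, thresholds, list lengths and linking distances. The input libraries were not analysed here.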

Additional observations from a re-analysis of the deposited data

Results flagged for a closer look

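Sequences outside the numbered chromosomes and X held 7 prednisolone regions and 11 untreated regions, which no comparison used. They were looked at because calls appeared in data outside the comparison. Of the 7 prednisolone regions, 4 were also called untreated.

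At some genes the calls of the WT and N642H lines went opposite ways. 211 of 317 genes that gained a STAT5B call in the WT line lost one in the N642H line (66.6%), and 12 genes did the reverse. Genes that lost a call in the WT line lost one in the N642H line at a like share (67.1%), against 26.5% of all genes, so the 66.6% is not particular to the gaining genes. Each line has 1 library per condition, and this difference was not tested.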

How the results depend on the processing

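Of 85 alternative values, 55 stayed within the interval of the value as reported, or within 1.5 times of a count, and 30 did not; the cause was not tested unless the setting itself fixes it. With an overlap of 50% of the shorter region, 53.4% of prednisolone and 17.9% of untreated regions were shared; allowing gaps of 500 bp, 66.6% and 23.4%. At a −log10 q of at least 5 in both lists, 54.5% of prednisolone regions were shared, 507 genes kept and 1362 lost a call; at a fold of at least 5, 52.5% were shared. At equal list lengths 38.8% of prednisolone and 38.0% of untreated regions were shared, and 648 genes gained, 546 kept and 677 lost a call. This setting evens out gains and losses by construction, and why the untreated list was longer was not tested. Gene ends within 500 bp took in 49.9% of lost regions, and within 2 kb 60.8%. Linked within 5 kb, 560 genes kept a call, and within 50 kb 1457; with the summit inside the gene, 148 gained, 188 kept and 810 lost one. No paired analysis was possible because each condition has 1 library. Lost regions had a median of 12 tags at the summit, against 16 for kept untreated regions. Losses were less frequent in the strongest untreated quintile, but only 47.4% of that quintile was kept. An absent call does not show absent binding, and depth is known only through the solved background.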
